A study of Mus musculus with 3 samples.

Results

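The genes described here encode enzymes that attach a polar group to a drug, a steroid or a reactive intermediate, together with the epoxide hydrolases that work beside them. They were taken from the array table by name: probe sets with 1 annotated symbol of the cytosolic glutathione S-transferase classes alpha, mu, pi, theta, omega, kappa and zeta, the microsomal glutathione transferases (Mgst), the UDP-glucuronosyltransferase families Ugt1 to Ugt3, the sulfotransferases (Sult), and Nat1, Nat2, Ephx1 and Ephx2. The rule gave 56 genes, each with 1 probe set, of 22180 genes in all. It left out Ugt1 and the zeta class, whose probe sets carry several symbols.

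RNA was measured on 3 whole-transcript arrays, 1 per group. FULA 1 is a mouse lung adenocarcinoma line, grown as a culture in DMEM with fetal bovine serum. The other arrays hold lung of FVB mice, an inbred strain prone to lung tumours, taken 1 week after an intraperitoneal injection of urethane, or after an injection of saline. Time of the saline lung, number and age of the mice, and whether FULA 1 is a single clone are stated in none of the sources used. With 1 array per group no test was possible, so each difference below compares arrays and has no replicate check.

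Conjugation makes fat-soluble compounds soluble enough to leave the cell. Glutathione S-transferases join the tripeptide glutathione to electrophiles such as epoxides and lipid aldehydes, UDP-glucuronosyltransferases transfer glucuronic acid from UDP-glucuronate, sulfotransferases transfer sulfate from the donor PAPS, and N-acetyltransferases acetylate arylamines. In the lung, club cells and alveolar type II cells hold much of this chemistry. Urethane is oxidised through vinyl carbamate to an epoxide, the kind of compound on which glutathione transferases and epoxide hydrolases act.

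The promoters of the genes on which the results turn are shown first, as 300 bases that run from 250 before to 50 after the start site in RefSeq (GRCm38.p6), written 5′ to 3′ along the gene. Ugt2b34, Ugt2b36 and Gsto1 had higher values in FULA 1 than in either lung. Capitals would mark any of 3 motifs searched on both strands, and these promoters hold none.
Ugt2b34 (chr5:86906888-86907187, minus strand): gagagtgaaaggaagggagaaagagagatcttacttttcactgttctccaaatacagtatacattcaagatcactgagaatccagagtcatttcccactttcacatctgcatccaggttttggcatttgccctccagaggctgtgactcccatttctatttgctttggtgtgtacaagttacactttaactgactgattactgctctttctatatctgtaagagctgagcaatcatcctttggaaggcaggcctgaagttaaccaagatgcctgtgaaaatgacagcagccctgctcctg
Ugt2b36 (chr5:87092506-87092805, minus strand): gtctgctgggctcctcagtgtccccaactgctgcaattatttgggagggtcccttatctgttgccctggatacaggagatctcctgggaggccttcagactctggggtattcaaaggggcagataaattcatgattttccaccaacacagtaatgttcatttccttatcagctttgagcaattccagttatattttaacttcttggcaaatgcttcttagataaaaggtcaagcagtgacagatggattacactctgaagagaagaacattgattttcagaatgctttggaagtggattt
Gsto1 (chr19:47854723-47855022, plus strand): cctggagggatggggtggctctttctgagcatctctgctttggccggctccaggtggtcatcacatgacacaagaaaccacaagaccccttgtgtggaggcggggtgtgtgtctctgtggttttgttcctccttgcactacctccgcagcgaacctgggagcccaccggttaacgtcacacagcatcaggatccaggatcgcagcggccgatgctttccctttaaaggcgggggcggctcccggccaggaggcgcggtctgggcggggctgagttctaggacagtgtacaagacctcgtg

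Gsta3, Gstm2 and Sult1a1 had lower values in FULA 1. The capitals in Gsta3 mark TGACNNNGC, the core of the antioxidant response element to which NRF2 binds, starting 121 bases before the start site.
Gsta3 (chr1:21240335-21240634, plus strand): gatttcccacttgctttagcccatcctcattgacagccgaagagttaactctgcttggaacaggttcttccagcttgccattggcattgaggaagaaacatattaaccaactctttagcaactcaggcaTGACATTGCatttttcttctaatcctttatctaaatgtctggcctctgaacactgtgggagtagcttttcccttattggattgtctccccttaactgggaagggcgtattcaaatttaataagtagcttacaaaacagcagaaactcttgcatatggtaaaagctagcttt
Gstm2 (chr3:107986371-107986670, minus strand): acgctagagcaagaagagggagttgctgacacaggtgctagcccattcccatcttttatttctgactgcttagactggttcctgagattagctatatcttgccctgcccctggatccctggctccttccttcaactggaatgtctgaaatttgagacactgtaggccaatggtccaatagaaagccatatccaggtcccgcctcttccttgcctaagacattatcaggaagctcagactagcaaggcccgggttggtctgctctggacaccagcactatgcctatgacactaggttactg
Sult1a1 (chr7:126676369-126676668, minus strand): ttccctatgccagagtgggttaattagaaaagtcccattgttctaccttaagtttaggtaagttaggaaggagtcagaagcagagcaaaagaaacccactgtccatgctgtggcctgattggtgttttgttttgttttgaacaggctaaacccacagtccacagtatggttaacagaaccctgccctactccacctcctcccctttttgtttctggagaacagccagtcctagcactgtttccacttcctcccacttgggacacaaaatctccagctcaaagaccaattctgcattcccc

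Gstp1 and Gstp2 lie side by side, and each changed little across the 3 arrays, Gstp1 from 7.80 to 8.11 and Gstp2 from 5.13 to 5.22. Their promoters are identical at 242 of 300 aligned positions (80.7%), and the capitals mark the AP-1 motif TGACTCA on the opposite strand (read as TGAGTCA), 74 bases before the Gstp1 start site and 89 before that of Gstp2.
Gstp1 (chr19:4037863-4038162, minus strand): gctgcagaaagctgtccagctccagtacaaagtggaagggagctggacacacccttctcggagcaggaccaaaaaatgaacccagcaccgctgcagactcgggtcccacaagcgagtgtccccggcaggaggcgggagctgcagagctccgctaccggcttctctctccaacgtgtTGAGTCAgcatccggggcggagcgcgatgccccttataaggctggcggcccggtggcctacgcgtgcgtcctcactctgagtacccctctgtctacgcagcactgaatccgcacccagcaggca
Gstp2 (chr19:4042172-4042471, minus strand): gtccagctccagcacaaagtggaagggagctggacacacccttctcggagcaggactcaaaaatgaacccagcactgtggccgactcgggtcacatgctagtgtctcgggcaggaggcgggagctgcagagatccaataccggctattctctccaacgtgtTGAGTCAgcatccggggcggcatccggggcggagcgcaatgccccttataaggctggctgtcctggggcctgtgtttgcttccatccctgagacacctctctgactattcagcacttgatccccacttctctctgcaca

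Of the 56 genes, 46 had a promoter in the table, with 57 start sites among them. TGACNNNGC stood in 3 of these 57 windows (5.26%), those of Gsta3, Gstm7 and Mgst1, against 12.4% of 32851 promoters of all genes. TGACTCA stood in 7 (12.3%), against 5.2% of all promoters, and TGCGTG, the core bound by the aryl hydrocarbon receptor, in 2 (3.51%), against 8.47%. No member window held TGACNNNGC together with TGACTCA (the 2 motifs overlap where TGACTCA is followed by GC). A match is a description of the letters in these windows, not of binding.

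The deposited columns are log2 signals on different scales, with medians of 4.96 on FULA 1, 1.22 on urethane lung and 0.08 on saline lung. Values were therefore quantile-normalized over all 41345 probe sets, and each gene also has its percentile rank among the 22180 genes of its own array. No monotone scaling alters the rank of a probe set among probe sets. Genes with several probe sets were averaged after normalization, so gene ranks can depend on the scale. A probe set's signal depends on its probes, so neither measure ranks one gene's RNA above another's. A mark of background was set at the 95th percentile of 1105 olfactory receptor genes, which lay at percentile rank 41.8 on FULA 1, 51.2 on urethane lung and 50.4 on saline lung. Above it stood 25 of the 56 genes on FULA 1 (44.6%, against 58.2% of all genes), 20 on urethane lung (35.7%, against 48.9%) and 20 on saline lung (35.7%, against 49.5%). The labelled origins were checked on marker genes. All 6 club cell markers and all 8 alveolar type II markers lay above the mark on each lung, with Scgb1a1 at percentile rank 99.9 on both. On FULA 1, 4 of 6 club cell and 6 of 8 alveolar type II markers lay above the mark. The club cell markers ran there from rank 16.0 (Scgb1a1) to 99.3 (Aldh1a1). The alveolar type II markers ran from 29.6 (Lamp3) to 75.5 (Abca3), with a median of 49.0, not far above the mark at 41.8. On urethane and saline lung their median ranks were 97.8 and 98.2. Of 4 pan-epithelial markers, Krt8 lay at 99.9 on FULA 1, Krt18 at 96.6 and Cdh1 at 92.4, each above its rank on both lungs. Epcam went the other way, at 68.4 on FULA 1, 87.2 on urethane lung and 78.1 on saline lung. Hepatocyte markers, which could carry liver conjugating enzymes, were above the mark for 3 of 7 genes on FULA 1, 1 on urethane lung and 2 on saline lung, and none passed rank 55.2.

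The median percentile rank of the 56 genes was 36.3 on FULA 1, 35.3 on urethane lung and 36.1 on saline lung; ranked among all probe sets of the table it was 40.8, 44.8 and 47.0 in the same order. Of the 56, 15 were above the mark on all 3 arrays, 9 only on FULA 1, 4 on both lungs but not on FULA 1, 1 on FULA 1 and urethane lung (Mgst2) and 1 only on saline lung (Sult2a4). The share of all genes with each of these patterns was not counted. Of all genes, 58.2% were above the mark on FULA 1, against 48.9% on urethane lung and 49.5% on saline lung. The patterns are therefore not read as a trait of the 56 genes. The other 26 were below the mark on every array. Glutathione transferases made up most of the genes seen in the lungs: of the 17 cytosolic members, kappa left out, 13 were above the mark on FULA 1, 12 on urethane lung and 12 on saline lung. Of the 10 glucuronosyltransferases of the Ugt2 and Ugt3 families, 2 were above the mark on FULA 1 and 0 on either lung. Ugt1 is not in this count. A probe set with 5 Ugt1a symbols was above the mark on both lungs and below it on FULA 1, and one with 8 the other way. Of the 21 sulfotransferases, 3 were above it on FULA 1, 3 on urethane lung and 4 on saline lung.

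**Figure D1:**
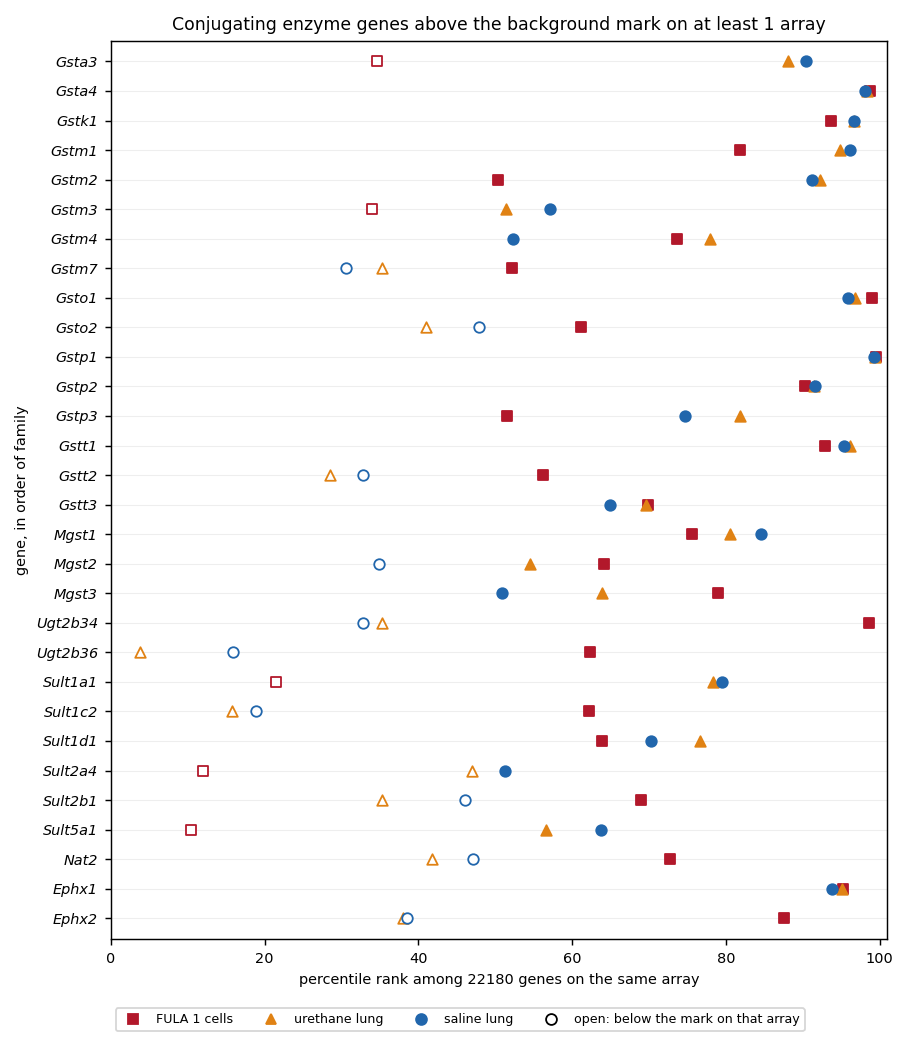
Percentile rank (x axis, among 22180 genes of the same array) of the 30 conjugating enzyme genes above the background mark on at least 1 array, grouped by family, with 1 point per array (squares FULA 1, triangles urethane lung, circles saline lung; open points are below the mark). Gstp1 and Gsta4 sit above rank 98 on all 3 arrays, while Ugt2b34 is at 98.6 on FULA 1 and at 35.3 and 32.8 on urethane and saline lung.

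A gene was counted as higher or lower if its normalized values differed by at least 2-fold (1 on the log2 scale) and the higher value was at or above the median of all gene values, 2.37. Against saline lung, 10 of the 56 genes were higher in FULA 1 (17.9%, where 13.9% of all genes were) and 7 were lower (12.5%, where 13.5% were). Against urethane lung, 8 were higher (14.3%, where 13.2% of all genes were) and 6 were lower (10.7%, where 11.6% were). The shares lay near those of all genes. With values below the mark raised to it, 6 were higher and 6 lower against saline lung (10.8% and 11.2% of all genes), and 5 were higher and 5 lower against urethane lung (10.4% and 9.73% of all genes). The median difference of the 56 genes was -0.10 (log2, FULA 1 minus saline lung), against -0.11 over all genes, and -0.09 (FULA 1 minus urethane lung), against -0.08. Both comparisons use the same FULA 1 array. On the deposited scale all 56 genes had a higher value on FULA 1 than on either lung, as nearly all genes did. Each direction given here therefore depends on the scaling between arrays. After a lowess curve was subtracted, Gstm4, Mgst2, Nat2, Sult2a4 and Sult2b1 were under 2-fold against saline lung, and Gsto1 and Mgst3 against urethane lung. With arrays shifted to a common median, Gstm1 was under 2-fold in both comparisons and Gstp3 in that with saline lung. Ephx2, Gsto1, Mgst3, Nat2, Sult1c2, Sult2b1, Ugt2b34 and Ugt2b36 were higher in both comparisons, and Gsta3, Gstm1, Gstm2, Gstp3, Sult1a1 and Sult5a1 lower in both. A cell line is set here against a tissue of many cell types, and fewer cells of a type and less RNA per cell cannot be told apart in a lung. In FULA 1 against saline lung, 6 of 6 club cell and 7 of 8 alveolar type II markers were lower by the same rule, and against urethane lung 5 of 6 and 8 of 8. Of 5 endothelial, 5 fibroblast and 5 leukocyte markers, 5, 5 and 3 were lower against urethane lung and 5, 4 and 3 against saline lung. Their part in the differences below was not tested.

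**Figure D2:**
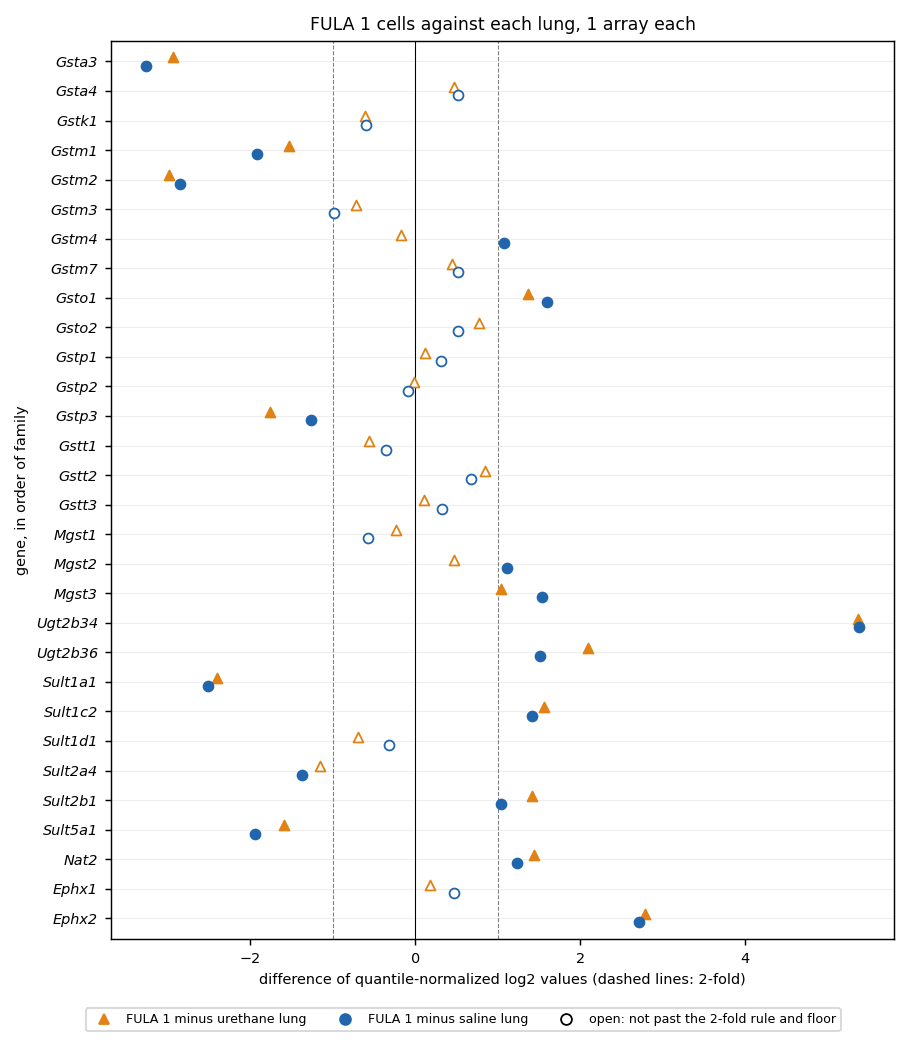
Difference of quantile-normalized log2 values (x axis) of FULA 1 minus urethane lung (triangles) and FULA 1 minus saline lung (circles) for the same 30 genes, 1 array per group and so without error bars. Filled points are past the 2-fold rule and the floor; Ugt2b34 lies at 5.36 and 5.38, and Gsta3 at -2.94 and -3.26.

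Among the alpha class, whose members act on lipid aldehydes and peroxides, the genes measured behaved differently. Gsta4, the enzyme that conjugates the lipid peroxidation product 4-hydroxynonenal, had normalized values of 7.39 on FULA 1, 6.93 on urethane lung and 6.87 on saline lung. Its ranks of 98.7, 98.3 and 98.1, in the same order, left it near the top of each array. Gsta3, which in the mouse detoxifies the epoxide of aflatoxin B1, had 1.76 on FULA 1, 4.70 on urethane lung and 5.02 on saline lung. The FULA 1 value was below the mark (rank 34.7) and both lung values lay high, at ranks 88.0 and 90.4. With the mark in place of the FULA 1 value, Gsta3 was lower in FULA 1 by at least 2.74 (log2) than in urethane lung and by at least 3.06 than in saline lung.

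The mu class lies as a run of neighbours on chromosome 3, in the order Gstm5, Gstm7, Gstm6, Gstm3, Gstm2, Gstm1 and Gstm4. Gstm1, a major mu transferase of mouse tissues, had 4.25 on FULA 1, 5.78 on urethane lung and 6.17 on saline lung. It was lower in FULA 1, by 1.53 against urethane lung and 1.92 against saline lung (log2); with each array only shifted to a common median, the difference from urethane lung turned to 0.03 and that from saline lung came to -0.70. Gstm2 had 2.28 on FULA 1, 5.27 on urethane lung and 5.13 on saline lung. Its FULA 1 value was above the mark of 1.96, at rank 50.3, and the differences were -2.99 from urethane lung and -2.85 from saline lung. Gstm3 was below the mark on FULA 1 (rank 33.9) and little above it on the lungs (51.4 on urethane lung, 57.1 on saline lung). Gstm7 was above the mark on FULA 1 alone, at rank 52.1, against 35.3 on urethane lung and 30.7 on saline lung, but its FULA 1 value of 2.37 was under the marks of the lungs, so no difference is given. Gstm6 was below it on all arrays. Mu class genes are close in sequence, so the probe sets may share signal and their values are uncertain.

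Gstm4 was lower on saline lung than on both other arrays. It had 3.63 on FULA 1, 3.80 on urethane lung and 2.54 on saline lung, at ranks 73.6, 78.0 and 52.3. The saline value lay only just above the mark of 2.46. Gstm4 was higher in FULA 1 than in saline lung by 1.08 and differed by -0.17 from urethane lung.

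In the pi class, the transferases that lung epithelium holds in quantity, Gstp1 and Gstp2 stayed level across the arrays. Gstp1 had 8.11 on FULA 1, 8.0 on urethane lung and 7.80 on saline lung, and no rank under 99.2. Gstp2 had 5.13 on FULA 1, 5.15 on urethane lung and 5.22 on saline lung. Both were under the 2-fold rule in every comparison. Gstp3, the neighbour of both, had 2.34 on FULA 1, 4.11 on urethane lung and 3.61 on saline lung. It was lower in FULA 1 by 1.77 against urethane lung and by 1.27 against saline lung. Gstp1 and Gstp2 are near-identical copies, so the signal of one probe set may come in part from the other transcript.

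The omega class enzyme Gsto1 reduces dehydroascorbate and methylated arsenic. It had 7.67 on FULA 1, 6.30 on urethane lung and 6.07 on saline lung, and was higher in FULA 1 by 1.37 and 1.60 (log2, against urethane and saline lung). Its neighbour Gsto2 was above the mark on FULA 1 alone (rank 61.2), with ranks of 41.0 on urethane lung and 47.9 on saline lung. Gstk1, the transferase of mitochondria and peroxisomes, had 5.69 on FULA 1, 6.30 on urethane lung and 6.29 on saline lung. The theta class member Gstt1, which acts on halogenated alkanes, had 5.55 on FULA 1, 6.11 on urethane lung and 5.91 on saline lung, and Gstt3 had 3.40, 3.29 and 3.07 in the same order. Gstt2 was above the mark on FULA 1 alone, at rank 56.2, and Gstt4 on none. No theta or kappa gene passed the 2-fold rule in any comparison.

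The microsomal transferases are membrane proteins; Mgst1 protects membranes from peroxides, while Mgst2 and Mgst3 also belong to the family that makes leukotriene C4. Mgst3 had 4.02 on FULA 1, 2.98 on urethane lung and 2.48 on saline lung, and was higher in FULA 1 by 1.04 and 1.54 (log2, against urethane and saline lung). Mgst2 had 3.05 on FULA 1, 2.58 on urethane lung and 1.94 on saline lung, where it was below the mark. The difference of Mgst2 from saline lung was 1.11, or at least 0.59 with the mark in place of the saline value. Mgst1 lay the other way, with 3.77 on FULA 1, 4.01 on urethane lung and 4.34 on saline lung, within 2-fold.

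Ephx1 encodes the microsomal epoxide hydrolase, which opens epoxides of drugs and polycyclic hydrocarbons. Its values were 6.04 on FULA 1, 5.86 on urethane lung and 5.57 on saline lung, at ranks of 95.3, 95.1 and 93.7. Ephx2, the soluble epoxide hydrolase of fatty acid epoxides, had 4.78 on FULA 1, 2.0 on urethane lung and 2.06 on saline lung. Both lung values were below the mark. On the quantile-normalized scale Ephx2 was therefore higher in FULA 1 by at least 2.33 against urethane lung and 2.31 against saline lung (log2). With a lowess curve subtracted instead, Ephx2 was higher by 2.20 and 1.95. The ranks were 87.5 on FULA 1, 37.9 on urethane lung and 38.6 on saline lung.

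Ugt2b34 showed the widest gap of the 56 genes between FULA 1 and the lungs. It had 7.28 on FULA 1, 1.92 on urethane lung and 1.91 on saline lung. The FULA 1 value stood at rank 98.6 and both lung values were below the mark, at 35.3 and 32.8. On the quantile-normalized scale Ugt2b34 was therefore higher in FULA 1 by at least 4.84 against urethane lung and 4.82 against saline lung (log2). With a lowess curve subtracted instead, Ugt2b34 was higher by 4.18 and 4.17. In RefSeq gene order on chromosome 5 it opens a run of neighbours that goes on with Ugt2b1, Ugt2b35, Ugt2b36, Ugt2b5, Ugt2b37, Ugt2a3, Ugt2b38, Ugt2a1 and Ugt2a2, followed by Sult1b1, Sult1d1 and Sult1e1. The next gene, Ugt2b1, was below the mark on all arrays, with rank 13.6 on FULA 1. Further on, Ugt2b36 had 2.94 on FULA 1, 0.84 on urethane lung and 1.42 on saline lung. Its FULA 1 rank of 62.3 stood against 3.78 on urethane lung and 15.9 on saline lung, and with the mark in place of the lung values it was higher by at least 0.49 and 0.47. The other 6 measured Ugt2 genes were below the mark on all 3 arrays. Ugt2b genes are close in sequence too, and the values of Ugt2b34 and Ugt2b36 are uncertain for that reason. The promoters of Ugt2b34 and Ugt2b36 are identical at 151 of 300 aligned positions (50.3%), and those of Ugt2b34 and its neighbour Ugt2b1 at 166 (55.3%).

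**Figure D3:**
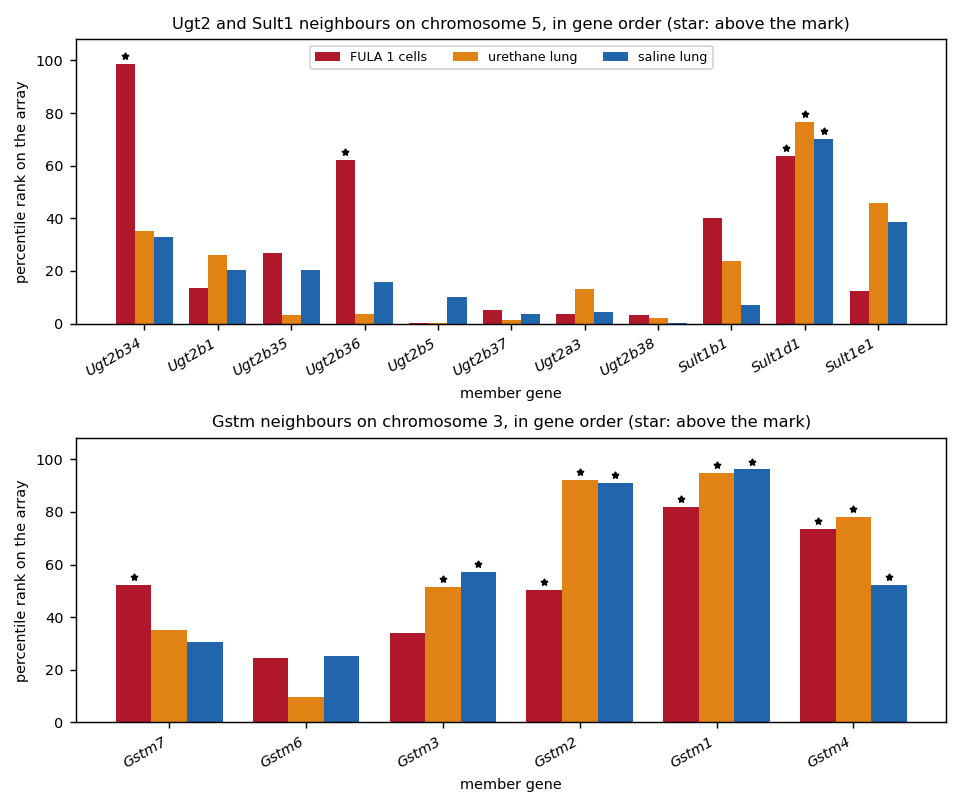
Percentile rank on the array (y axis) of the member genes of a run of Ugt2 and Sult1 neighbours on chromosome 5 (top) and of Gstm neighbours on chromosome 3 (bottom), in gene order, with 1 bar per array (FULA 1, urethane lung, saline lung) and a star where the value is above the background mark. In the upper run only Ugt2b34, Ugt2b36 and Sult1d1 carry stars; in the lower run Gstm2 stands at 50.3 on FULA 1 and at 92.2 and 91.1 on urethane and saline lung.

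Among sulfotransferases, Sult1a1 conjugates phenols and some hydroxylated carcinogens. It had 1.42 on FULA 1, 3.83 on urethane lung and 3.94 on saline lung. The FULA 1 value was below the mark, so Sult1a1 was lower in FULA 1 by at least 1.86 against urethane lung and at least 1.98 against saline lung (log2). Sult5a1 had 1.06 on FULA 1, 2.66 on urethane lung and 3.01 on saline lung, lower in FULA 1 by at least 0.69 and 1.05. Sult1d1, which in the mouse sulfates catecholamines, was above the mark throughout, with 3.03 on FULA 1, 3.72 on urethane lung and 3.35 on saline lung. Sult2b1, which sulfates cholesterol and is known from skin, had 3.34 on FULA 1, 1.92 on urethane lung and 2.30 on saline lung. Both lung values of Sult2b1 were below the mark. The bound on the quantile-normalized scale was 0.90 against urethane lung and 0.88 against saline lung. With a lowess curve subtracted instead, Sult2b1 was higher by 1.18 and 0.67. Sult1c2 was likewise above the mark on FULA 1 alone (rank 62.2, against 15.8 on urethane lung and 18.9 on saline lung), with bounds of 0.48 and 0.46. Of the 8 Sult2a genes, hydroxysteroid sulfotransferases best known from liver, only Sult2a4 passed the mark on any array: it had 1.13 on FULA 1, 2.28 on urethane lung and 2.50 on saline lung, the last just above the mark of 2.46.

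Nat2 encodes the arylamine N-acetyltransferase of many mouse tissues. It had 3.57 on FULA 1, 2.12 on urethane lung and 2.34 on saline lung. The lung values were below the mark. On the quantile-normalized scale Nat2 was higher in FULA 1 by at least 1.12 and 1.10 (log2, against urethane and saline lung). With a lowess curve subtracted instead, Nat2 was higher by 1.13 and 0.78. Its neighbour in name, Nat1, was below the mark on all arrays, at ranks of 5.96 on FULA 1, 3.81 on urethane lung and 6.16 on saline lung.

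The 26 genes below the mark on every array were Gstm6, Gstt4, Nat1, Sult1b1, Sult1c1, Sult1e1, Sult2a1, Sult2a2, Sult2a3, Sult2a5, Sult2a6, Sult2a7, Sult2a8, Sult3a1, Sult3a2, Sult4a1, Sult6b1, Sult6b2, Ugt2a3, Ugt2b1, Ugt2b35, Ugt2b37, Ugt2b38, Ugt2b5, Ugt3a1 and Ugt3a2. Their median percentile rank was 7.13 on FULA 1, 12.2 on urethane lung and 10.3 on saline lung. They are given no differences. Low values often coincided: with values within 0.00001 counted as equal, 2 of the 56 genes shared a deposited value with another on FULA 1, 11 on urethane lung and 17 on saline lung. Gstm7, Sult2b1 and Ugt2b34 shared 1 value on urethane lung.

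Between the lungs, only Gstm4 was at least 2-fold higher in urethane lung (1 of 56, 1.79%, where 1.84% of all genes were) and 0 of 56 were lower (where 0.739% of all genes were). With values below the mark raised to it the counts were again 1 and 0, where 1.15% and 0.428% of all genes passed. Gstm4 had 3.80 on urethane lung and 2.54 on saline lung, a difference of 1.26 on the log2 scale. The difference was 1.00 with arrays shifted to a common median and 0.98 after a lowess curve was subtracted, just under 2-fold in both. Markers of cell types also differed between these arrays: the alveolar type II marker Abca3 was higher in urethane lung by 2.23, the only one of 8 past the rule, and the cardiac muscle marker Nppa was lower by 1.01, with a median of -0.93 over the 4 cardiac markers. Their part in the Gstm4 difference was not tested. The median difference of the 56 genes was 0.01 (urethane minus saline lung), against -0.06 over all genes. Mgst2 was above the mark on urethane lung alone of the lungs, with 2.58 there and 1.94 on saline lung, a difference of 0.64, or at least 0.12. The neighbours of Gstm4 did not follow it: the differences were -0.39 for Gstm1, 0.13 for Gstm2 and -0.27 for Gstm3. Among the other genes above the mark on both lungs, Gstp3 was at 0.50 and Mgst3 at 0.49, and Gsta3 at -0.33 and Mgst1 at -0.33. Ephx1 and Gstp1 differed by 0.30 and 0.20.

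**Figure D4:**
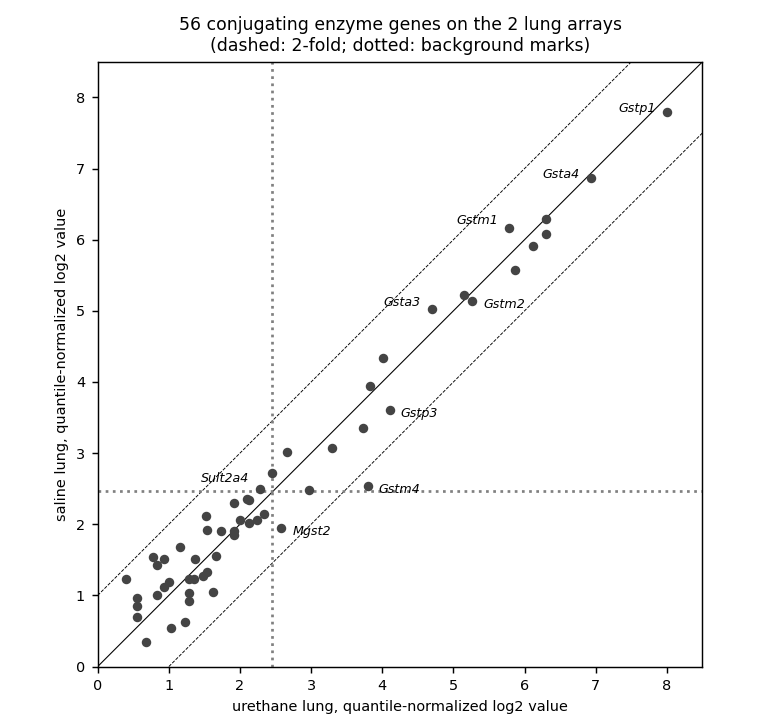
Quantile-normalized log2 value of each of the 56 genes on urethane lung (x axis) and saline lung (y axis), 1 point per gene and 1 array per axis. The solid line marks equal values, the dashed lines 2-fold and the dotted lines the background marks (2.44 and 2.46); above both marks only Gstm4 lies outside the dashed lines.

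A list of 16 genes that supply the cofactors of conjugation, or remove the conjugated group, was looked at beside the enzymes, and 14 were measured. All 14 were above the mark on FULA 1 (where 58.2% of all genes were) and 11 on each lung (where 48.9% were on urethane and 49.5% on saline lung). In FULA 1, 8 were at least 2-fold higher than in urethane lung (where 13.2% of all genes were) and 7 than in saline lung (13.9%). Ahcy was only just past the rule, at 1.02 and 1.01. The genes of this list and of the lists below were not compared again on the other scales. In either comparison 0 were lower (where 11.6% and 13.5% of all genes were). The median difference was 1.06 and 0.84 (log2, against urethane and saline lung). Ugdh, which oxidises UDP-glucose to the UDP-glucuronate that glucuronosyltransferases use, had 7.97 on FULA 1, 5.32 on urethane lung and 5.41 on saline lung. Slc35d1, which carries UDP-glucuronate into the endoplasmic reticulum, was higher in FULA 1 by at least 1.62 and 1.60. In glutathione synthesis, Gclm, the modifier subunit of the first enzyme, had 6.93 on FULA 1, 5.61 on urethane lung and 5.35 on saline lung. Gclc, the catalytic subunit, stayed within 2-fold, with 6.4 on FULA 1, 6.29 on urethane lung and 5.83 on saline lung. The glutathione synthetase gene Gss was higher in FULA 1 by 1.29 and 1.59 (log2, against urethane and saline lung), and the glutathione reductase gene Gsr by 1.54 and 1.73. Papss2, a synthase of the sulfate donor, was higher by 1.67 and 1.26, and its relative Papss1 by 1.09 against urethane lung but only 0.39 against saline lung. Slc35b2, a transporter of that donor, lay at -0.80 and -0.76, within 2-fold, and Ugp2, which makes UDP-glucose, at -0.05 and 0.09. Gusb and Arsa, which remove glucuronate and sulfate, stayed within 2-fold; Gusb lay at 0.57 and 0.66. Between the lungs 0 of the 14 passed the rule in either direction.

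**Figure D5:**
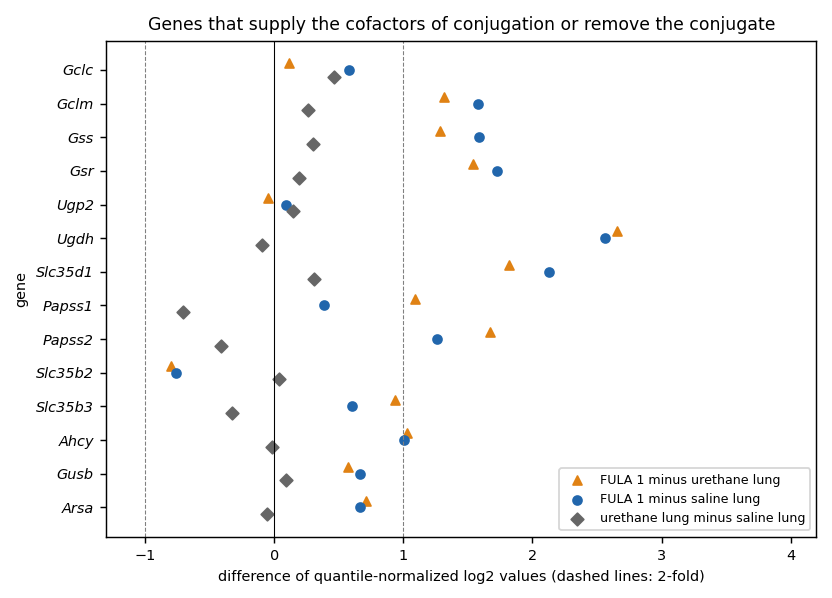
Difference of quantile-normalized log2 values (x axis) for the 14 measured genes that supply cofactors or remove the conjugate, with 1 point per comparison (triangles FULA 1 minus urethane lung, circles FULA 1 minus saline lung, diamonds urethane minus saline lung) and dashed lines at 2-fold. Ugdh lies at 2.65 and 2.56 in the FULA 1 comparisons and at -0.09 between the lungs.

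Of 17 receptors and regulators of these enzymes, 16 were measured. In FULA 1, 1 was higher and 4 were lower than in urethane lung (where 13.2% and 11.6% of all genes were), and 2 were higher and 4 lower than in saline lung (13.9% and 13.5%). Nfe2l2, which encodes NRF2, had 7.73 on FULA 1, 7.09 on urethane lung and 7.36 on saline lung, and its inhibitor Keap1 had 3.36, 3.36 and 3.29 in the same order. Hnf4a, a nuclear receptor of liver and gut epithelium, was higher in FULA 1 by at least 1.30 and 1.28 (log2, against urethane and saline lung). Cebpa, Cebpb, Rxra and Mafk were lower in FULA 1 in both comparisons, Cebpa by 2.04 and 1.55, Cebpb by 1.44 and 1.88, and Mafk by 1.47 and 1.81. Arnt, the partner of the aryl hydrocarbon receptor, lay at 0.88 and 0.82. Mafg, a small Maf partner of NRF2, was higher in urethane than in saline lung by 1.13, or at least 0.78 when its saline value, below the mark, is raised to it. It was also higher in FULA 1 than in saline lung, by 1.04, or at least 0.69. The xenobiotic receptor gene Nr1i2 lay at ranks of 43.7 on FULA 1, 38.4 on urethane lung and 43.2 on saline lung, and Nr1i3 at 49.3, 33.5 and 35.8 in the same order. Both were above the mark on FULA 1 and below it on each lung, and neither passed the 2-fold rule. Their FULA 1 values, 2.03 and 2.24, were also under the marks of the lungs. Of 11 measured NRF2 target genes outside the enzyme set, which include Gclc and Gclm again, 6 were higher in FULA 1 than in urethane lung (where 13.2% of all genes were) and 5 than in saline lung (13.9%), and 0 were lower (11.6% and 13.5%). Gclm, counted above, is 1 of these in each comparison. Me1, the malic enzyme gene, differed most, by 2.79 and 2.64, and Slc7a11, the cystine transporter gene, was higher by at least 0.37 and 0.35. At the other end lay Srxn1, at -0.61 and -0.85, and Taldo1, at 0.23 and -0.23. Nqo1 was higher than in urethane lung by 1.16, or by at least 0.90, and differed from saline lung by 0.24.

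Of 8 measured enzymes of methyl and acyl conjugation outside the set, 3 were above the mark on FULA 1 (58.2% of all genes). On each lung 2 were (48.9% of all genes on urethane lung and 49.5% on saline lung). Tpmt, which methylates thiopurine drugs, was higher in FULA 1 by at least 2.10 and 2.08 (log2, against urethane and saline lung). Inmt, an indolamine methyltransferase, had 2.23 on FULA 1, 9.66 on urethane lung and 9.85 on saline lung. As3mt, which methylates arsenic, had 3.52 on FULA 1, 3.90 on urethane lung and 4.40 on saline lung. Glyat, a glycine acyltransferase, and Acsm1, an acyl-CoA synthetase, were below the mark on all 3 arrays, and no difference is given for them.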

How the data were processed

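The values the authors deposited are log2 signals, 1 per probe set and array. Per the submitters' processing notes they were made by RMA; the design text names GeneSpring GX 12.5. Nothing used here states the background setting or which arrays were normalized as a group, and 0 columns of other samples were present. Of 41345 probe sets, 23521 carried 1 gene symbol in the platform annotation, 1814 several and 16010 none here. RefSeq (GRCm38.p6) matched 23328 by Entrez identifier, all 56 of the rule among them, with 0 renamed. Genes with several probe sets were given their mean.

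The plan took quantile normalization to the mean of the sorted columns as the main scale, with tied values at their mean rank (Python 3.11.15, pandas 2.3.3, scipy 1.17.1, statsmodels 0.14.6), and listed the values as deposited, a median shift, the FULA 1 quantiles, a lowess curve (span 0.3), other folds and floors, the brightest probe set and values held at the mark as alternatives. A value below the mark was put at the mark of its array to give a bound; a gene below it on both arrays compared, or whose bound would turn the sign, counted as 0. The members, gene lists and rules were chosen with earlier results of these data known. Every member above the mark on at least 1 array was named with its values, the others together; of each list at least the 2 highest and 2 lowest were named, and others past the 2-fold rule could be. The number of arrays limits the precision. The calling step was tested on simulated data with few planted changes and little noise. That test does not show how the calls behave on these arrays. Promoters came from RefSeq's table of start sites, the first listed per gene, aligned globally for identity.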

Additional observations from a re-analysis of the deposited data

How the results depend on the processing

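No paired analysis was possible because each group has 1 array, and no replicate could be left out. As deposited, 55 of the 56 genes counted as higher and 0 as lower in FULA 1 against either lung, and 11 as higher in urethane lung. Of all 22180 genes, 21703 were then higher and 20 lower in FULA 1 than in saline lung. Against urethane lung 21603 were higher and 22 lower, and 5180 were higher in urethane than in saline lung. The median differences were then 4.30 (FULA 1 minus saline lung), 3.33 (FULA 1 minus urethane lung) and 1.03 (urethane minus saline lung), while those of all genes were 4.80, 3.69 and 1.09. With arrays shifted to a common median, 18 genes were higher in FULA 1 than in urethane lung and 0 in urethane than in saline lung, and Gstm1 turned to 0.029 (FULA 1 minus urethane lung); this was the only sign among the differences past the rule to turn under the median shift, the FULA 1 quantiles or lowess. The all-gene median (FULA 1 minus saline lung) was then -0.21, and 0.03 after lowess. After lowess 6 were higher in FULA 1 than in saline lung and 0 in urethane than in saline lung. With the FULA 1 quantiles 2 were higher in urethane lung, as at 1.5-fold, where 1373 of all 22180 genes were. Held at the mark, 6 and 5 were higher in FULA 1 than in saline and urethane lung; Sult1c2, Sult2b1 and Ugt2b36 were then under 2-fold in both comparisons, Mgst2 and Sult2a4 in that with saline lung and Sult5a1 in that with urethane lung. At 4-fold 2 were higher and 3 lower than in saline lung, 3 higher and 3 lower than in urethane lung, and 0 higher between the lungs. Of all 22180 genes, 852 were higher and 767 lower than in saline lung at 4-fold. Against urethane lung 774 were higher and 678 lower, and 17 were higher in urethane than in saline lung. With the floor at the 75th percentile 4 were higher and 4 lower than in saline lung, and 4 higher than in urethane lung. Of all genes, 2213, 1720 and 2111 were, in the same order. Ranked among all probe sets, the median ranks were 40.8 on FULA 1, 44.8 on urethane lung and 47.0 on saline lung. Over all genes, the split of FULA 1 against saline lung was 3073 higher and 2994 lower, 6590 and 2076 with the median shift, and 2142 and 3010 after lowess. Against urethane lung it was 2930 and 2581, then 6755 and 1786, and 2160 and 2743. Between the lungs it was 409 and 164, then 184 and 223, and 233 and 35; it was 979 and 897 with the FULA 1 quantiles. The cause was not tested.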

Other observations

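A further 9 probe sets of these families carry several symbols and stand in none of the comparisons. The probe set of Gstm5 and 4933431E20Rik had a normalized value of 5.87 on FULA 1, 2.99 on urethane lung and 3.09 on saline lung, a difference of 2.88 and 2.78 (log2, FULA 1 minus urethane and minus saline lung). Gstm5 opens the chromosome 3 run described above. The probe sets shared by Gsta1, Gsta2 and predicted genes were uneven. One, with the symbols Gsta1, Gm3776 and Gsta2, had 3.44 on FULA 1, 0.69 on urethane lung and 0.82 on saline lung, both lung values below the mark. Another, which adds Gm10639, had 3.77 on FULA 1, 3.29 on urethane lung and 2.22 on saline lung, a difference of 1.06 between the lungs, or at least 0.82. The third was below the mark on all arrays.

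The probe set common to 8 Ugt1a symbols had 2.72 on FULA 1, above the mark, and 1.62 and 1.78 on urethane and saline lung, below it. That with 5 Ugt1a symbols had 1.71 on FULA 1, below the mark, against 3.21 on urethane lung and 3.19 on saline lung. The probe set of Gstz1 and Pomt2 had 3.34 on FULA 1, 3.11 on urethane lung and 3.42 on saline lung, and that shared by Gstp1 and Gstp2 had 5.96, 5.64 and 5.67 in the same order. Ugt2a1 and Ugt2a2 together were below the mark on all arrays.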
